A study of Mus musculus with 6 samples.

Results

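Early occupancy by the transcription factor Foxa1 was compared with late occupancy by its relative Foxa2 in mouse prostate tumor cells. Chromatin immunoprecipitation and sequencing (ChIP-seq), which recovers the DNA that a protein is bound to, had been run once for each factor at each time. The early Foxa1 list came from C57BL/6 mice given tamoxifen for 2 weeks and held 53460 regions on chromosomes 1 to 19. The late Foxa2 list came from the same strain after 6 months of tamoxifen and held 34729 regions. These 88189 regions were taken from 125038 in the 4 lists of the series on chromosomes 1 to 19, X and Y. The 6-month Foxa1 list, with 35630 regions on chromosomes 1 to 19, was used as a side reading. The 2-week Foxa2 list held 1 region on those chromosomes and was not compared. The 2 input libraries were not analysed here. Per the labels' protocols, 3 prostates were dissected and fixed for chromatin. The sources used here do not give the allele that tamoxifen acts on, its driver or the age of the mice.

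Factor and time both differ between the compared lists, and each group has 1 library, so the effects of factor, time, antibody and library cannot be told apart and no test between groups was made. Region lists give occupancy and no expression, so the labelled tissue could not be checked by its transcripts. Read depth is unknown from these lists, and absence from a list means only that no region was called there. Intervals on shares are exact Clopper-Pearson 95% intervals and cover counting error only. Strength is the authors' -log10 q of a region, and it was used to rank regions within a list.

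Foxa1 and Foxa2 are forkhead proteins, related in their DNA-binding domain, and both are known as pioneer factors because they can bind sites in closed chromatin. Foxa1 is a partner of the androgen receptor in luminal prostate epithelium. Foxa2 is known from the endoderm and from neuroendocrine prostate tumours, and it is low in normal adult luminal cells. Both proteins read closely similar forkhead motifs, so the same stretch of DNA can serve either of them.

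Promoter sequences are shown first because they are the sites at which the DNA under both factors could be read. Windows of 300 bases, 250 before and 50 after a start site, came from RefSeq (build GRCm38.p6, the coordinates of mm10) and covered 20084 start sites of 16456 genes. Regions of both factors overlapped 293 windows (1.46%), early Foxa1 alone 474 (2.36%) and late Foxa2 alone 158 (0.787%). The forkhead words TGTTTAC and TGTTTGC were searched on both strands, and a word on each strand can share 2 bases (TGTTTGC with GCAAACA). At least 1 of them was present in 7.47% of all windows. The share was 26.3% (21.3 to 31.7) in windows with both factors, 23% (19.3 to 27.1) with early Foxa1 alone, 19.6% (13.7 to 26.7) with late Foxa2 alone and 6.7% (6.35 to 7.07) with neither. The 3 kinds of occupied window had overlapping intervals, and each lay above the windows with neither factor. Their median GC content was 57%, 52.7% and 53%, against 57% with neither. In 83 of the 293 windows with both factors both summits, the highest points of the regions, lay inside the window, and 25 of the 83 (30.1%) held a word. A match is a description of the letters and not a mapped binding site. The 250 bases before the start site are printed 5′ to 3′ on the gene's strand, with forkhead words in capitals, GTAAACA and GCAAACA being the same words read on the other strand. Hdac7, Hspbp1 and Ttll10 stand for windows with both summits and a word, and they were chosen after their values were seen. Zmynd11 stands for windows with both factors and no word, as the window whose weaker region ranked highest within its own list, Smgc for early Foxa1 alone and Kcnk16 for late Foxa2 alone.
Hdac7: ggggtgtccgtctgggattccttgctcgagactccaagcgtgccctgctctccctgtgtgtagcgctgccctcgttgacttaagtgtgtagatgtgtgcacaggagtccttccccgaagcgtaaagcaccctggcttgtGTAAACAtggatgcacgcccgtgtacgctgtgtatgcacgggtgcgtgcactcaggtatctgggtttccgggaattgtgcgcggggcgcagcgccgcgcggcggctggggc
Hspbp1: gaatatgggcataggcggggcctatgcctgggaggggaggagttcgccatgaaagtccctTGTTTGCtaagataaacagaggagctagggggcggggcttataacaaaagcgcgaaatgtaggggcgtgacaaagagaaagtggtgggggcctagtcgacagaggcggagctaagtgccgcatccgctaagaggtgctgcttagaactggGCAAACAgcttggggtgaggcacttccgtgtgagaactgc
Ttll10: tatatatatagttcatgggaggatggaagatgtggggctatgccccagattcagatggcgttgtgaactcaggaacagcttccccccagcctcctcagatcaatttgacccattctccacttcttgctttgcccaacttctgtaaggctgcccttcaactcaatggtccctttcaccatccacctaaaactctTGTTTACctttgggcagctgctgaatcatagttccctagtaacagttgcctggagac
Zmynd11: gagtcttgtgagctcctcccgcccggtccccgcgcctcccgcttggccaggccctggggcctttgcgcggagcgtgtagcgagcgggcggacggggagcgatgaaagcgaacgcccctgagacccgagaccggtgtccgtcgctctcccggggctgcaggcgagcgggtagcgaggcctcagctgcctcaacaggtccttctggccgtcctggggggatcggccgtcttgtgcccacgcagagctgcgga
Smgc: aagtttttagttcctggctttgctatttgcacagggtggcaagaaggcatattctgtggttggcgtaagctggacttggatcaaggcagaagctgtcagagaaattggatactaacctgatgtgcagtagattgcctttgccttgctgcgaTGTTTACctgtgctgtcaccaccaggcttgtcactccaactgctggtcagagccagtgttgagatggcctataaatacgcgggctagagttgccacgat
Kcnk16: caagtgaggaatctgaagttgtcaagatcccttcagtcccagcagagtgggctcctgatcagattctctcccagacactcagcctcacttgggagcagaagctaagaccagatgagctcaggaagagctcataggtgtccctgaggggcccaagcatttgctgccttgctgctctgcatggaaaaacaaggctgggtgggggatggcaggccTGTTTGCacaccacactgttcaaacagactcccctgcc

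Hdac7 encodes a class IIa histone deacetylase, and the printed bases are chr15:97831768-97832017, minus strand. Its word began 111 bases before the start, the early Foxa1 summit (-log10 q 47.6) lay 173 bases before it and the late Foxa2 summit (-log10 q 16.9) 201 bases before it. The Hspbp1 sequence (chr7:4684982-4685231, minus strand), of a cofactor of the Hsp70 chaperone, held 2 words that began 190 and 40 bases before the start. The Foxa1 summit lay 191 and the Foxa2 summit 225 bases before it, both near the farther word. In Ttll10 (chr4:156050818-156051067, minus strand), of the tubulin ligase-like family, the word began 57 bases before the start and the summits lay 123 (Foxa1) and 112 (Foxa2) bases before it. Zmynd11 (chr13:9763811-9764060, minus strand), a reader of methylated histones, held no word in its window. Its summits lay 484 (Foxa1) and 435 (Foxa2) bases inside the gene, outside the letters shown. Smgc (chr15:91838078-91838327, plus strand), the gene of submandibular gland protein C, held TGTTTAC beginning 99 bases before the start under an early Foxa1 region of -log10 q 84.2. That region's summit was 2771 bases before the start, so the word is under its edge. Kcnk16 (chr14:20269270-20269519, minus strand), a 2-pore potassium channel, held TGTTTGC beginning 38 bases before the start under a late Foxa2 region of -log10 q 44.1, with the summit 249 bases before the start.

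Most early Foxa1 regions had no late Foxa2 region on them, and most late Foxa2 regions lay away from early Foxa1. Regions were called shared when they overlapped by 1 bp or more. Of the early Foxa1 regions 11697 were shared (21.9%, 21.5 to 22.2), and of the late Foxa2 regions 12769 (36.8%, 36.3 to 37.3). They formed 13251 overlapping pairs, and the shares differ mostly because the Foxa2 list is the shorter. The median distance between the summits of a pair was 114 bp, and 66.6% of pairs had summits within 200 bp. Over the pairs the Spearman correlation of -log10 q was 0.152 (n = 13251), a description across sites that share the 2 libraries. Among overlapping pairs the 2 strengths were thus weakly related, and 965 of the 13251 pairs were in the strongest 10% of both lists.

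Shared regions were the wider and stronger ones of each list. Shared early Foxa1 regions had a median width of 738 bp and a median -log10 q of 10.4, against 421 bp and 5.77 for those without Foxa2. For late Foxa2 the medians were 465 bp and 5.48 for shared regions, against 293 bp and 4.19. Each list was split into 10 equal parts by strength. From the strongest to the weakest part, the shared portion went from 47.7% to 11.4% of Foxa1 and from 62% to 25.8% of Foxa2. Width moved with strength, from a median of 1510 bp in the strongest to 222 bp in the weakest part of Foxa1, and its part in the trend was not tested. The strongest parts still contained 2794 early Foxa1 and 1320 late Foxa2 regions with no counterpart.

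**Figure D1:**
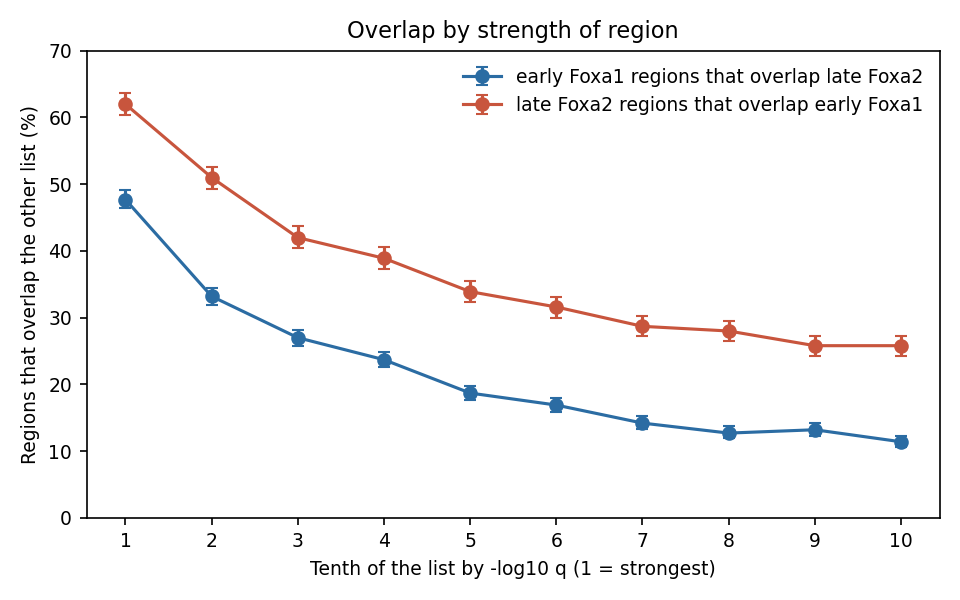
Share of regions (y axis, %) that overlap the other list, by part of the list ranked on -log10 q (x axis, 10 equal parts, 1 is the strongest), with points for the share and bars for the exact 95% interval. Early Foxa1 (blue) runs from 47.7% to 11.4% and late Foxa2 (red) from 62% to 25.8%, with Foxa2 above Foxa1 in each of the 10 parts. The Foxa2 list is the shorter, so overlaps make up more of it.

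Regions that were not shared were often far from the other factor. An early Foxa1 region without overlap lay a median of 25.1 kb from the nearest late Foxa2 region, with 29.1% within 10 kb and 15.7% beyond 100 kb. A late Foxa2 region without overlap lay a median of 14.2 kb from early Foxa1, with 43.4% within 10 kb and 13.7% beyond 100 kb. The Foxa1 list is the longer of the pair. The shared portion differed little between chromosomes, from 19.5% (chromosome 3) to 24.1% (chromosome 10) for Foxa1 and from 34% (chromosome 8) to 39.6% (chromosome 19) for Foxa2.

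The shared portion of each list was largest near start sites, but most shared regions lay elsewhere. Within 1 kb of a start site 36.8% of early Foxa1 and 57.4% of late Foxa2 regions were shared. At 1 to 10 kb the shares were 21.6% and 44.5%, at 10 to 100 kb 21.4% and 39.2%, and beyond 100 kb 21.2% and 28.7%. Early Foxa1 was thus near its average everywhere but at start sites, while the share of late Foxa2 fell step by step with distance. Regions near start sites were not stronger: the median -log10 q within 1 kb was 5.79 for Foxa1 and 4.19 for Foxa2. They were few, 1616 and 1095, of which 595 and 628 were shared. At 10 to 100 kb 5417 early Foxa1 and 5938 late Foxa2 regions were shared. In gene deserts, with no gene end within 100 kb, 18.8% of Foxa1 and 25.9% of Foxa2 regions were shared. Start sites of chromosome 18 were not used here.

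**Figure D2:**
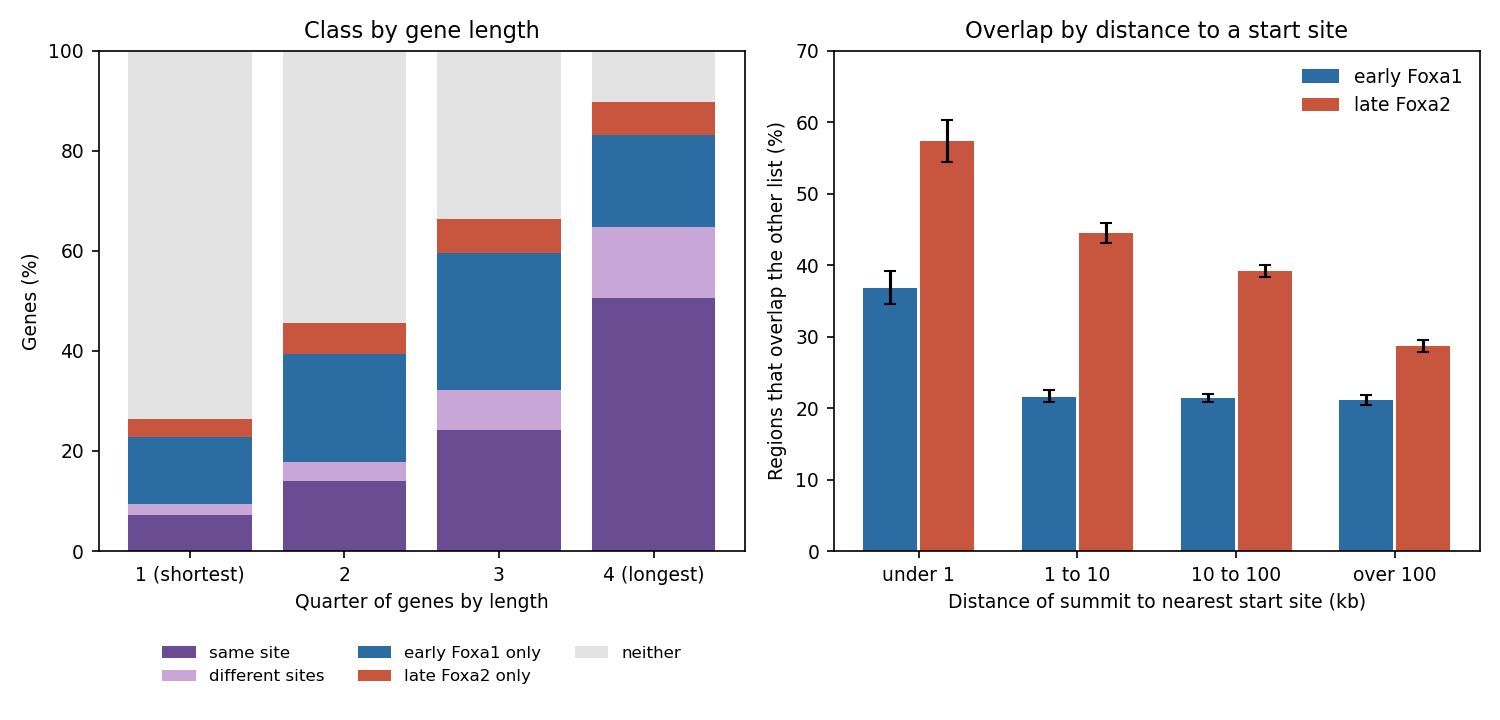
Left, the share of protein-coding genes (y axis, %) in each occupancy class by gene length (x axis, 4 groups of like size from short to long), with both factors at the same site in 7.26% of the shortest and 50.6% of the longest group. Right, the share of regions that overlap the other list (y axis, %) by distance of the summit to the nearest start site (x axis, kb), with exact 95% intervals, from 57.4% to 28.7% for late Foxa2 and from 36.8% to 21.2% for early Foxa1.

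The 6-month Foxa1 list shows what else was at the early Foxa1 sites later on. Of the 53460 early Foxa1 regions, 9634 (18%) overlapped both factors at 6 months, 2115 (3.96%) Foxa1 alone, 2063 (3.86%) Foxa2 alone and 39648 (74.2%) neither. Early sites with late Foxa2 therefore mostly had late Foxa1 as well. Regions with both later factors had a median -log10 q of 11.7 at 2 weeks, and those with neither 5.57.

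The strongest shared site lay at chr2:161143673-161145813 (mm10), 35.9 kb from Chd6, a chromatin remodeller. Its -log10 q was 116 for early Foxa1 and 92.2 for late Foxa2, and the summits were 35 bp apart. The next shared sites were in deserts of chromosomes 17 and 2, inside Exph5, a Rab27 effector in vesicle transport, and 15.4 kb from Galnt18, of the enzymes that start mucin-type glycans. All 5 also had Foxa1 at 6 months. The strongest early Foxa1 regions without Foxa2 were in Ccdc34 (-log10 q 119), in Rasgef1a, 16 kb from the bZIP repressor gene Nfil3, in the super elongation complex gene Mllt3 and 44.2 kb from the steroid 5-beta-reductase gene Akr1d1, and none of these 5 regions had Foxa1 at 6 months. The strongest late Foxa2 regions without early Foxa1 were in Tcf7l1, a TCF repressor of Wnt targets (chr6:72640323-72642619, -log10 q 77.7), 7.13 kb from Aopep, 98.2 kb from the neural factor Sox11, in Synrg and in a desert of chromosome 2. All 5 of these had Foxa1 at 6 months, and the share over all such late Foxa2 regions is not given here. Of all early Foxa1 regions without late Foxa2, 2115 overlapped Foxa1 at 6 months and 39648 did not. Of the 9 genes at these strongest single-factor sites, 7 also had shared sites elsewhere, against 24% of all genes. The 9 were picked for holding a strong region, which all genes were not. Shared early Foxa1 regions numbered 14 in Aopep, 5 each in Nfil3, Mllt3 and Tcf7l1, 3 in Ccdc34 and 2 each in Sox11 and Synrg. Rasgef1a and Akr1d1 had none.

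Genes were counted next. A gene collects many regions, so the factors meet in a gene more readily than at a site, and the shares are not comparable. A region was counted for each of 20661 protein-coding genes whose body contained its summit. A region outside all gene bodies went to the nearest gene end within 100 kb. Both factors were at the same site, as an overlapping pair, in 4964 genes (24% of all genes). A further 1460 genes (7.07%) held both factors at different sites only. Early Foxa1 only was found in 4159 genes (20.1%), late Foxa2 only in 1205 (5.83%) and neither in 8873 (42.9%). Of 10583 genes with early Foxa1, 60.7% also held late Foxa2, and of 7629 genes with late Foxa2, 84.2% also held early Foxa1. Where a gene held both, an overlapping pair was present in 77.3%.

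Gene length went along with these classes. The median length was 49.4 kb for same-site genes, 44.9 kb for different-site genes, 21.3 kb for early Foxa1 only, 22 kb for late Foxa2 only and 7.65 kb for neither. Over 4 groups of like size from short to long genes, the same-site share was 7.26%, 14.1%, 24.1% and 50.6%. The single-factor classes rested on few regions: 2079 of the 4159 early-only genes (50%) and 743 of the 1205 late-only genes (61.7%) held 1 region. Of the same-site genes 53.7% held exactly 1 shared early Foxa1 region, and 458 held 5 or more.

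The classes also differed in Foxa1 at 6 months, which was found at 35.3% of all genes. It was present at 92.7% of same-site genes, 78.8% of different-site genes, 10.8% of early-only genes, 74.6% of late-only genes and 2.13% of genes with neither. Genes with late Foxa2 in any class thus mostly had late Foxa1, and genes with early Foxa1 only mostly did not. The late lists share the time point, and the sources used here do not say whether they share chromatin.

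**Figure D3:**
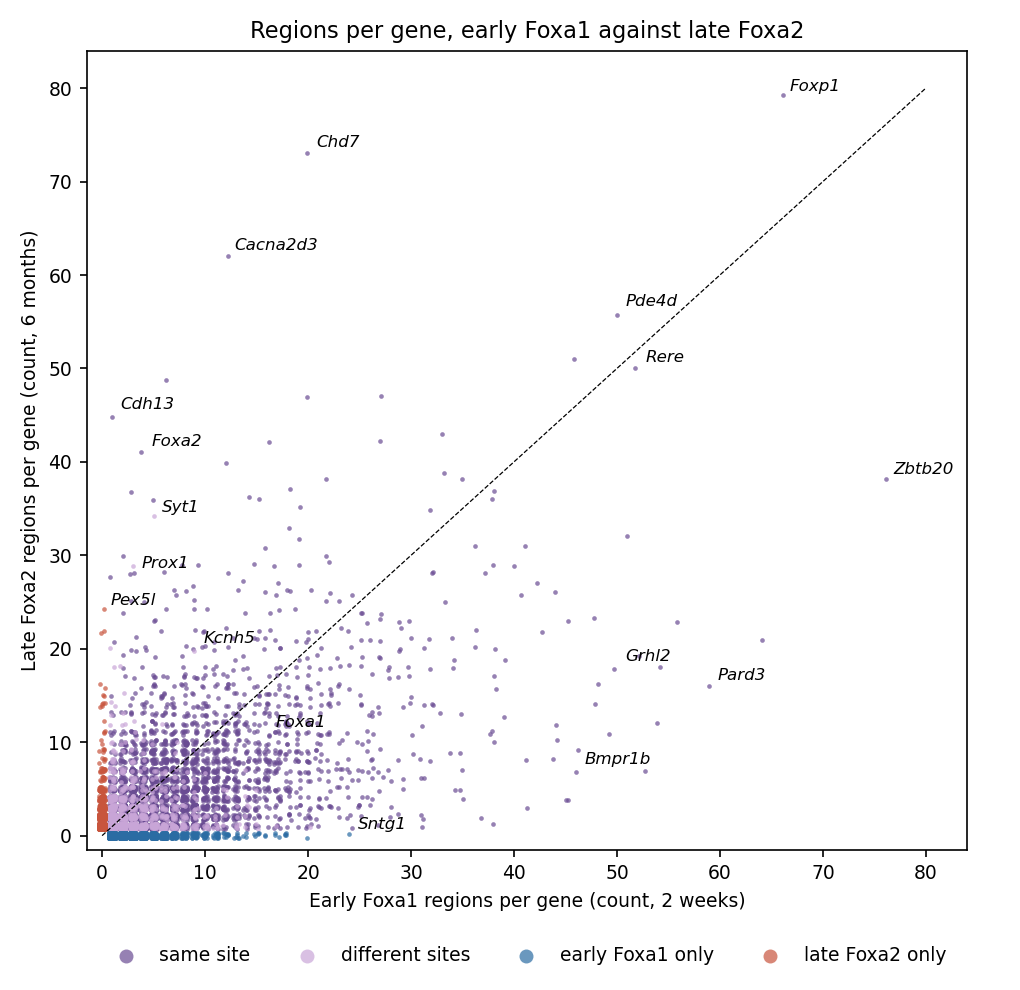
Regions per gene for early Foxa1 (x axis, count) and late Foxa2 (y axis, count), 1 point a gene, coloured by class and shifted by a small random amount so that points do not hide each other; the dashed line marks equal numbers. Foxp1 (66 and 79) is high on both axes, Foxa2 (4 and 41) and Cdh13 (1 and 45) lie near the y axis, and Grhl2 (50 and 18) and Bmpr1b (46 and 7) lie below the line.

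Among same-site genes Foxp1 had the most shared regions. Foxp1, a forkhead repressor (chromosome 6, 98925342 to 99522746), held 66 early Foxa1 and 79 late Foxa2 regions, and 28 of the Foxa1 regions were shared. Rere, a nuclear receptor corepressor, held 52 and 50, with 25 shared. Pde4d, a cyclic AMP phosphodiesterase, held 50 and 56, with 18 shared. In these 3 genes the factors had like numbers of regions, and from 36% (Pde4d) to 48.1% (Rere) of the early Foxa1 regions were shared.

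The other named same-site genes varied in the balance of the factors, and over all genes the early Foxa1 and late Foxa2 sums were 47630 and 30184. Zbtb20, a zinc finger repressor, held 76 early Foxa1 and 38 late Foxa2 regions, with 15 shared. Grhl2, a factor of epithelial identity, held 50 and 18, with 14 shared. Arhgap26, a GTPase-activating protein, held 51 and 32 (16 shared), and Maml3, a Notch coactivator, 40 and 29 (14 shared). Megf9, with EGF-like repeats, had the highest shared portion of the 10, 15 of 22 early Foxa1 regions (68.2%) and 61.5% of its 26 late Foxa2 regions. Fryl (33 and 25, 15 shared) and the FERM-domain scaffold Frmd4b (32 and 35, 14 shared) completed the 10.

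The genes of the factors themselves were both same-site genes. Foxa1 held 16 early Foxa1 and 11 late Foxa2 regions, 7 of them shared, and 10 regions of Foxa1 at 6 months. Foxa2 held 4 early Foxa1 regions, all 4 shared, and 41 late Foxa2 regions, with 51 of Foxa1 at 6 months. Every early Foxa1 site of Foxa2 was thus a late Foxa2 site, and the other late sites lay apart from them.

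Genes with both factors but no common site were fewer and held fewer regions. Among the 405 genes with 10 or more regions of each factor none fell in this class. The nearest regions of the factors in a different-site gene were a median of 11.2 kb apart, within 10 kb in 46.6% and over 100 kb in 60 genes. Kcnh5, a potassium channel of the ether-a-go-go family, held 9 early Foxa1 and 20 late Foxa2 regions that came no closer than 1.11 kb. Erbb4, a neuregulin receptor, held 8 and 7, and the nearest were 169 kb apart. Tmeff2, a transmembrane protein with EGF-like and follistatin domains, held 7 and 10, at 109 kb. These distances describe only the closest pair of each gene. In Erbb4 and Tmeff2 even that pair was over 100 kb apart, whereas in Kcnh5 it was a pair of near neighbours.

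Of the other 7 genes named in this class, Ranbp17 (7 and 7, nearest 0.795 kb), Dock5, a Rac activator (9 and 6, 1.26 kb), and Lgsn (10 and 7, 1.28 kb) had near neighbours too. The sulfotransferase gene Chst9 held 14 and 7 (5.26 kb), the delta-sarcoglycan gene Sgcd 6 and 7 (13.5 kb), the carbonic anhydrase gene Car12 7 and 6 (18.5 kb) and the tubulin deglutamylase gene Agbl4 7 and 9 (49.2 kb). All 10 had Foxa1 at 6 months, with 5 to 15 regions each, and 78.8% of all different-site genes had it.

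Early Foxa1 only was seen at some genes with many regions, 67 of them with 10 or more. Sntg1, of the syntrophin scaffolds, held 24 early Foxa1 regions and no late Foxa2. Pparg, the nuclear receptor of fat cell differentiation that also works in urothelium, held 18, as did Nr2f2, the orphan receptor COUP-TFII. Pdgfd, a platelet-derived growth factor, held 20, and Slc12a2, the sodium, potassium and chloride cotransporter, held 18. Abhd12, a lipid hydrolase, also held 18. Rassf9, Asb7 and Rabgef1 held 17 each and Arhgap42, a GTPase-activating protein, 16. At 6 months Foxa1 was listed with 1 region at each of Abhd12, Slc12a2 and Rassf9 and with 0 at the other 7. Of all early-only genes 10.8% had Foxa1 at 6 months.

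Late Foxa2 only was seen with 10 or more regions at 18 genes. Pex5l, a partner of HCN channels, held 24 late Foxa2 regions and no early Foxa1. Sorcs1, a sorting receptor, and Spock1, a proteoglycan, held 22 each. Rbfox3, the splicing factor known as NeuN, and Dlgap2, of the postsynaptic density, held 16 each. Atp2b2, a plasma membrane calcium pump, held 15, as did the cilia gene Cfap61. Cadm2, a synaptic adhesion molecule, Fam174a and Ddc, the decarboxylase that makes dopamine and serotonin, held 14 each. All 10 carried Foxa1 at 6 months, from 10 regions (Ddc) to 32 (Pex5l), and 74.6% of all late-only genes carried it.

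**Figure D4:**
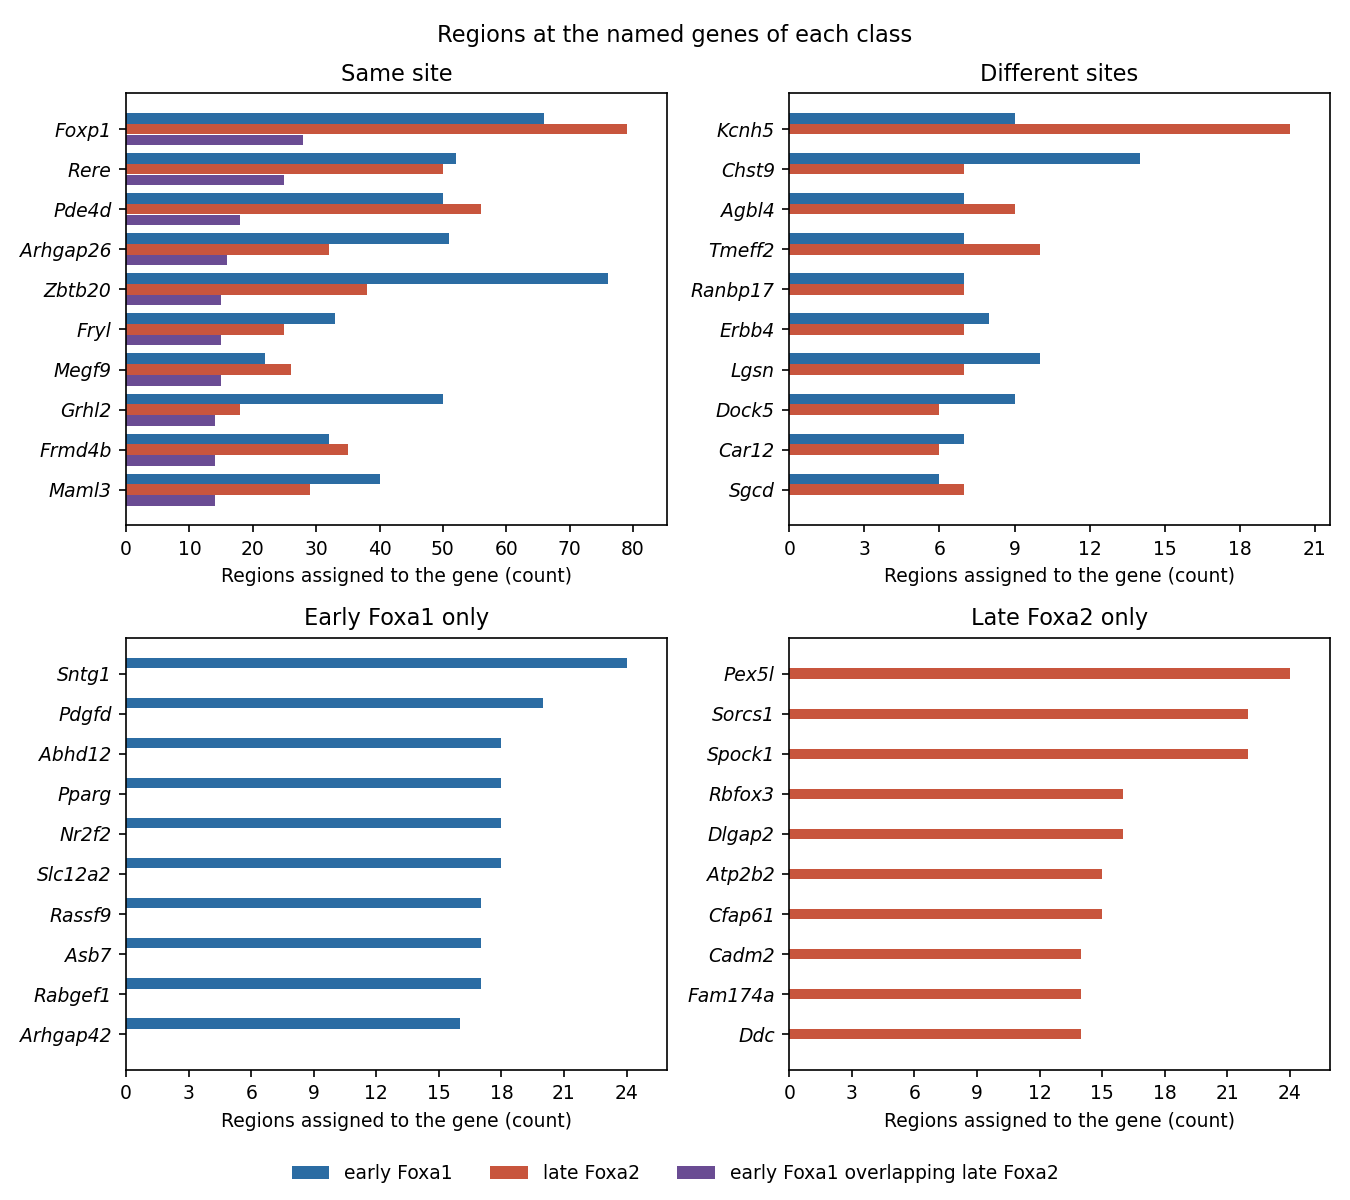
Regions assigned to the 10 named genes of each class (x axis, count): early Foxa1 in blue, late Foxa2 in red and early Foxa1 regions that overlap late Foxa2 in purple. Shared bars appear in the same-site panel alone because the class is defined by them, from 28 in Foxp1 to 14 in Maml3.

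Gene lists were compared by class. Besides the share of all genes, each list was set beside the share of genes in the same length groups, called the share at like length. Of 23 lists, 17 had a same-site share more than 10 percentage points above that of all genes (24%), and 3 lay more than 10 points below. Against the share at like length, 14 were more than 10 points above and 2 below. The lists are short and the intervals wide. Named members are those with the most shared or single-factor regions.

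Early Foxa1 held 17 of 18 luminal and androgen response genes, against 10583 of all 20661 genes. Of the 18, 11 had late Foxa2 at the same site (61.1%, 35.7 to 82.7, against 28.1% at like length). Tmprss2, an androgen-driven protease gene, held 22 early Foxa1 and 7 late Foxa2 regions, with 5 shared. Zbtb16, an androgen-responsive zinc finger gene, held 32 and 8, with 5 shared, and Abcc4, a transporter, 20 and 21, with 5 shared. Early Foxa1 only held 5 of the 18 (27.8%, against 20.1% of all genes), and 4 with lists of equal length. The 5 were Slc45a3 (8 regions), Spink1 (7), Hoxb13 (4), Msmb (3) and Pmepa1 (1). None of the 5 had Foxa1 at 6 months, which only 10.8% of all early-only genes had. The 18 genes together held 155 early Foxa1 and 64 late Foxa2 regions, against 47630 and 30184 over all genes. With both lists cut to 34729 regions the sums were 101 and 64, against 30881 and 30184.

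Basal epithelium genes had the largest early-only share of the 23 lists, 6 of 14 (42.9%, against 20.1% of all genes), or 5 with lists of equal length. The early-only share was 27.3% in length group 3 of 4, which holds the list's median length of 32.4 kb. Same-site were 3 (21.4%, against 29.9% at like length). Itga6, a laminin receptor subunit, held 17 early Foxa1 and 16 late Foxa2 regions, with 12 shared. Dst, a cytoskeletal linker of hemidesmosomes, held 17 and 12 (7 shared), and Trp63, the master regulator of basal cells, 8 and 5 (2 shared). Of the keratins Krt5, Krt15 and Krt17 held neither factor, and Krt14 held 1 early Foxa1 region. The luminal keratins Krt8 (3 and 1) and Krt18 (3 and 2) each had 2 shared.

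Neuroendocrine regulators leaned to late Foxa2. Of 20 genes, 12 had more late Foxa2 than early Foxa1 regions (background 14.1% of all genes) and 6 the reverse (background 37%). By class, 8 were same-site (40%, against 20.8% at like length), 2 different-site, 4 early only (20%, against 20.1% of all genes), 4 late only (20%, against 5.83%) and 2 neither. With lists of equal length, 5 were same-site, 3 different-site, 2 early only and 6 late only. Prox1, a homeobox regulator, held 3 early Foxa1 and 28 late Foxa2 regions, with 2 shared. St18, a zinc finger factor, held 13 and 21 (5 shared), and Sox2, a stem and neural factor, 3 and 11 (1 shared). The late-only genes included Myt1 (8 regions), a zinc finger factor of neural progenitors, Insm1 (2) and Nkx2-1 (2). Each of these had Foxa1 at 6 months, as did 74.6% of all late-only genes. Early Foxa1 only held the tuft cell factor Pou2f3 (4), Pou3f2 (2), Isl1 (1) and Rest (1), the repressor of neuronal genes. The list held 46 early Foxa1 and 145 late Foxa2 regions, of which the Foxa2 gene itself gave 41, and with lists of equal length 28 and 145.

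Of 23 secretory granule and synapse genes 11 were richer in late Foxa2 (background 14.1% of all genes) and 8 in early Foxa1 (background 37%). They were same-site in 11 (47.8%, against 32% at like length). Early only were 3 (13%, against 20.1% of all genes), or 1 with lists of equal length. Snap25, of the exocytosis machinery, held 3 early Foxa1 and 28 late Foxa2 regions, with 2 shared. Syt1, its calcium sensor, held 5 and 34 without a common site. Chga, the granule protein used as a neuroendocrine marker, held 7 late Foxa2 regions and no early Foxa1, while Chgb held 1 early Foxa1 region and no late Foxa2. Ptprn2, a granule phosphatase, held 18 and 26 (6 shared), and Cadps, a priming factor, 23 and 10 (4 shared). Late Foxa2 only held 4 of the 23 (17.4%, against 5.83% of all genes), with Scg5 (3), Pcsk2 (2) and Vamp2 (1) beside Chga.

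Epithelial transcription factor genes nearly all held both factors: 16 of 26 at the same site (61.5%, against 25.3% at like length). Another 6 held them at different sites (23.1%, against 7.07% of all genes). Nfib held 48 early Foxa1 and 23 late Foxa2 regions, with 14 shared. Klf5 held 15 and 16 (7 shared), Ehf 35 and 7 (4 shared), Gata3 20 and 4 (2 shared) and Nfia 44 and 8 (3 shared). Spdef (3) held early Foxa1 only, and Tfap2c (1) late Foxa2 only. More early Foxa1 than late Foxa2 regions were held by 15 of 26 (background 37% of all genes). The list's sums were 308 and 139, and with lists of equal length 188 and 139.

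Among 25 forkhead genes 12 were same-site (48%, against 26.1% at like length) and 2 different-site. Early only were 3 (12%, against 20.1% of all genes) and late only none (against 5.83%). Besides Foxp1, Foxn3 held 18 early Foxa1 and 37 late Foxa2 regions (7 shared), and Foxq1, a small gene, 18 and 5 (4 shared). Foxo1 held 15 and 3 (2 shared), and Foxo3 10 and 2 without a common site. Foxa3, the third member of the Foxa group, held neither. Sox genes, another family of developmental factors, were same-site in 10 of 18 (55.6%, against 15.5% at like length), but within 5 kb of a gene end the difference from all genes was -0.321 points. Sox5 held 27 and 42 (12 shared), Sox6 19 and 32 (8 shared) and Sox9 11 and 3 (1 shared).

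Gut and liver endoderm factors, among which Foxa proteins have known targets, were same-site in 6 of 20 (30%, against 28% at like length) and different-site in 4 (20%, against 7.07% of all genes). Tcf7l2 held 35 early Foxa1 and 4 late Foxa2 regions (2 shared), and Ttr, a classical hepatic Foxa target, 4 and 5 (3 shared). Onecut1 held 6 and 5 at different sites. Hnf4g (4) and Nr5a2 (4) held early Foxa1 only, and Gata4 (2) late Foxa2 only.

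**Figure D5:**
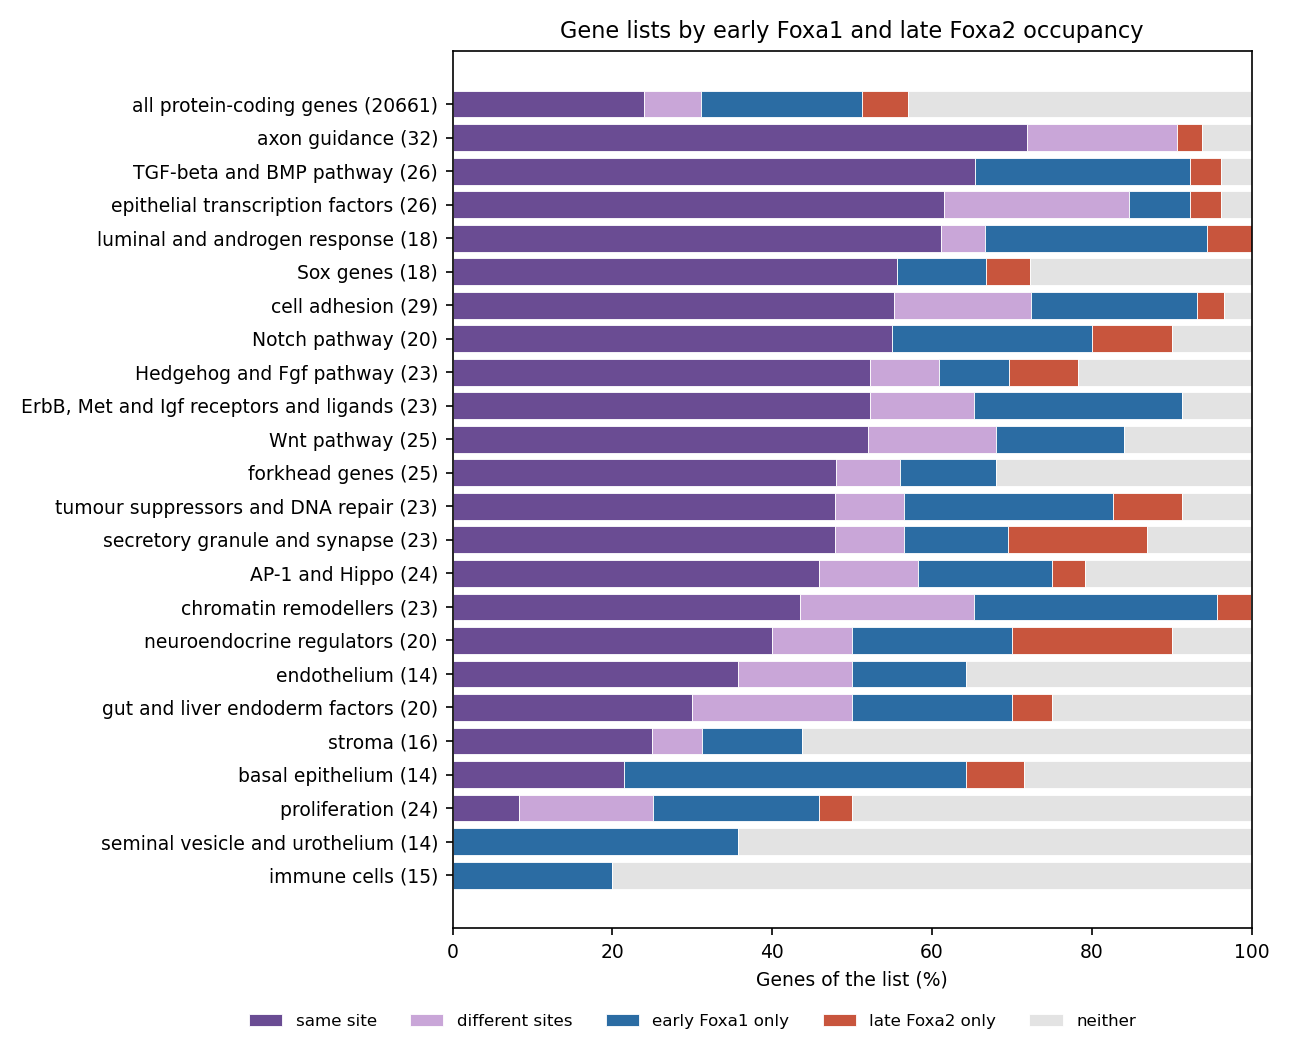
Share of genes (x axis, %) of each list in the 5 occupancy classes, with the number of genes in brackets and all protein-coding genes at the top. Axon guidance has the largest same-site share, 71.9%. The lists of immune cells and of seminal vesicle and urothelium have no gene with late Foxa2. Their same-site shares at like length are 20.7% and 12.5%.

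In the ErbB, Met and Igf list 12 of 23 genes were same-site (52.2%, against 38.5% at like length). Of the 23, 6 were early only (26.1%, against 20.1% of all genes) and none late only (against 5.83%). When only regions within 5 kb of a gene end were counted, the list's same-site share was below that of all genes, by -7.08 percentage points. Of the ErbB receptors, Egfr held 20 early Foxa1 and 2 late Foxa2 regions (1 shared), Erbb2 5 and 0, Erbb3 4 and 0, and Erbb4 8 and 7 at different sites. Among the ligands Nrg1 held 27 and 13 (2 shared), Tgfa 10 and 6 (2 shared), and Btc (8), Nrg4 (7) and Areg (5) had early Foxa1 only. Igf1r, the receptor of insulin-like growth factors, held 20 and 18 (7 shared), and Met, the receptor of hepatocyte growth factor, 15 and 6 (4 shared). Insr, the insulin receptor, held 5 early Foxa1 regions only.

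Wnt pathway genes were same-site in 13 of 25 (52%, against 37.2% at like length) and late only in none (against 5.83% of all genes). With lists of equal length the counts were 10 and 2. The R-spondin receptor Lgr4 held 25 early Foxa1 and 18 late Foxa2 regions (7 shared), the Wnt coreceptor Lrp6 12 and 12 (8 shared), beta-catenin gene Ctnnb1 9 and 10 (6 shared) and Tcf7l1 12 and 20 (5 shared). The Frizzled receptors Fzd1 (2), Fzd3 (2) and Fzd6 (3) had early Foxa1 only. The 4 different-site genes were Apc (9 and 3), Axin2 (1 and 3), Dkk1 (1 and 1) and Sfrp1 (3 and 7).

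In the Notch pathway 11 of 20 genes were same-site (55%, against 25.7% at like length). Early only were 5 (25%, against 20.1% of all genes) and late only 2 (10%, against 5.83%). The target Hes1 held 18 early Foxa1 and 12 late Foxa2 regions (6 shared) and the ligand Dll1 5 and 8 (2 shared). Of the receptors Notch2 held 13 and 2 (1 shared), Notch1 3 and 0, Notch3 1 and 0, and Notch4 0 and 1. The ligands Jag1 and Jag2 were on opposite sides, with 3 early Foxa1 and 2 late Foxa2 regions.

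TGF-beta and BMP genes were same-site in 17 of 26 (65.4%, against 33.4% at like length). The receptor Bmpr1b held 46 early Foxa1 and 7 late Foxa2 regions (5 shared), Tgfbr3 24 and 18 (8 shared) and the inhibitor Skil 15 and 9 (7 shared). Smad2 held 12 early Foxa1 regions only, whereas Smad3 held 13 and 2 (2 shared). Of the Id genes, targets of BMP, Id2 held 9 and 14 (3 shared), Id4 3 and 8 (1 shared) and Id1 3 and 0. Tgfb3 was the late-only gene, with 4 regions.

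Hedgehog and Fgf genes were same-site in 12 of 23 (52.2%, against 31.9% at like length). Fgfr2, a receptor needed for prostate budding, held 11 early Foxa1 and 18 late Foxa2 regions, with 8 shared, and Fgf1 16 and 14 (8 shared). Shh, the ligand, held 12 and 2 (2 shared), and its receptor Ptch1 4 and 10 at different sites. In the AP-1 and Hippo list 11 of 24 were same-site (45.8%, against 26.2%): Tead1 held 15 and 29 (10 shared) and Jun 16 and 12 (5 shared), while Yap1 held 6 early Foxa1 regions only.

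Tumour suppressor and DNA repair genes were same-site in 11 of 23 (47.8%, against 38.3% at like length), and within 5 kb of a gene end their share differed from all genes by -2.74 points. Rad51b, a recombination gene, held 64 early Foxa1 and 21 late Foxa2 regions (13 shared), and the homeobox gene Zfhx3 44 and 10 (4 shared). Rb1 held 10 and 5 (2 shared) and Cdkn2b, a cyclin-dependent kinase inhibitor, 9 and 11 (4 shared). Trp53 held 1 late Foxa2 region and Brca2 3, both late only, and Cdkn1a held 3 early Foxa1 regions only. Proliferation genes were the least occupied of the lists that are not markers of other tissues. Of 24, 12 held neither factor (50%, near the 42.9% of all genes). The 2 same-site genes (8.33%, 1.03 to 27, against 18.1% at like length) were Rrm2 (7 and 6, 4 shared) and Bub1b (2 and 2, 1 shared).

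Chromatin remodellers were same-site in 10 of 23, about the share at like length (43.5% against 44.9%). Chd7 held 20 early Foxa1 and 73 late Foxa2 regions (12 shared), while Chd2 held 38 and 11 (9 shared) and Arid1b 56 and 23 (14 shared). Smarca2 (4), Pbrm1 (3), Ep300 (2) and Crebbp (2) were among the 7 early-only genes (30.4%, against 20.1% of all genes). That class held 4 with lists of equal length.

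Axon guidance genes had the largest same-site share of the 23 lists, 23 of 32 (71.9%, 53.3 to 86.3), and they are long: the share at like length was 47.8%. None was early only (against 20.1% of all genes). Efna5, an ephrin, held 16 early Foxa1 and 26 late Foxa2 regions (8 shared), Sema6a 20 and 16 (7 shared), and the Slit receptors Robo1 29 and 20 (6 shared) and Robo2 36 and 20 (7 shared). Dcc, a netrin receptor, held 5 and 23 (2 shared), Nrp1 9 and 25 (6 shared) and Ephb1 9 late Foxa2 regions only.

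Cell adhesion genes were same-site in 16 of 29 (55.2%, against 44.2% at like length). Early Foxa1 was the richer in 16 members (background 37% of all genes) and late Foxa2 in 11 (background 14.1%). Cdh1, the epithelial cadherin, held 21 early Foxa1 and 9 late Foxa2 regions (5 shared), and the polarity genes Pard3 59 and 16 (10 shared) and Pard3b 41 and 8 (7 shared). The claudins Cldn4 (7), Cldn1 (6) and Cldn7 (1) were early only. Cdh13 held 1 and 45 (1 shared), Cntn5 10 and 24 (5 shared), Pcdh15 1 and 20 and Cntn4 1 and 14, the last pair at different sites. Cadm1 had like numbers, 33 and 39 (10 shared). The list's sums were 312 and 304, and with lists of equal length 190 and 304.

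Markers of other tissues differed between lists. Of 16 stromal genes 9 held neither factor (56.2%, against 42.9% of all genes), and Dcn (13 and 4, 3 shared) held the most. Same-site were 4 (25%, against 23.7% at like length). Of 15 immune genes 12 held neither (80%) and none held late Foxa2, against 7629 of all 20661 genes. The same-site share at like length was 20.7% for this list. Endothelial genes were same-site in 5 of 14 (35.7%, against 34% at like length, and within 5 kb of a gene end -4.29 points from all genes), with sums of 29 early Foxa1 and 42 late Foxa2 regions, led by Vwf (9 and 17, 6 shared) and Erg (2 and 9, 2 shared). Of 14 genes of the seminal vesicle and urothelium none was same-site, against 12.5% at like length. Their median length was 3.6 kb, and 73.5% of genes in the shortest of the 4 length groups held neither factor. Of the 14, 9 held neither (64.3%) and 5 early Foxa1 only (35.7%, against 20.1% of all genes). Among the 5 were Upk1b (5) and Upk3a (3), which code for uroplakins. With lists of equal length 3 of these 14 remained early only. Sites at such genes do not show which cells they came from, and the part of other cell types in the lists was not tested.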

How the data were processed

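Peak lists of ChIP-seq libraries were used, 1 library per group. Build mm10 and the tools MACS2 2.1.1, Bowtie2, HOMER, Trim Galore 0.5.0, bedtools 2.25.0, DiffBind 2.12.0 and deepTools 3.2.1 are named in the submitters' processing notes. The sources used here state no role or parameter for them. The deposited lists have 1 library each and give for every region the authors' score, the fold enrichment (a ratio over the caller's background) and -log10 values of p and q. The smallest -log10 q in both deposited lists was 1.31. More regions are called in a deeper or cleaner library, and read depth is unknown, so list length and absence from a list depend on the library as well.

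Regions on chromosomes 1 to 19 were compared in Python 3.11.15 (numpy 2.4.6, pandas 2.3.3, scipy 1.17.1, figures with matplotlib 3.10.9), and overlap counts equalled those of bedtools 2.31.1. Genes and promoter windows came from RefSeq tables of GRCm38.p6, and regions went to genes as the text states. On simulated lists 10000 of 10000 planted overlaps, 1500 of 1500 assignments and 200 of 200 gene classes were recovered. The 23 lists held 491 genes, of which 485 were on chromosomes 1 to 19, and 6 were on X and left out. No genome sequence was used, so regions outside promoter windows were not searched for motifs.

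The comparison, the gene lists and the rule for named genes were chosen with earlier results of these data known. The rule took the 10 genes of each class with the most shared regions, the largest lower number of the factors' regions, or the most regions of the only factor, with ties going to the higher summed -log10 q, the 5 strongest sites of each kind, the strongest promoter windows, members of each list with the most shared, early-only or late-only regions, and Foxa1 and Foxa2. Genes named in the text beyond it (the other receptors, ligands and markers of a pathway) were chosen after their values were seen. Alternatives were a -log10 q or fold of at least 5, lists of equal length, a reciprocal overlap of 50%, summits within 200 bp, X and Y added, regions less than 1 kb apart joined, and 3 other assignments to genes. Some items that the rule selects are not reported here.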

Additional observations from a re-analysis of the deposited data

How the results depend on the processing

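No paired analysis was possible because each group has 1 library, and for the same reason no library could be left out. The share of early Foxa1 regions that were shared was 18.2% with a -log10 q of at least 5, 15.4% with a fold of at least 5, 26.8% with lists of equal length, 10.3% with a reciprocal overlap of 50%, 16.6% with summits within 200 bp and 23.9% after joining regions under 1 kb apart. For late Foxa2 the shares were 40.1%, 38.3%, 30.7%, 15.8%, 25.6% and 42% in the same order. The late Foxa2 share stayed above the early Foxa1 share under each of these, by a smaller margin with lists of equal length. Both shares count the same overlaps, and the Foxa2 list is the shorter except at equal length. Their order therefore says little about the factors. In the full lists 1351 early Foxa1 regions overlapped 2 or more late Foxa2 regions, and 460 late Foxa2 regions overlapped 2 or more of early Foxa1. Genes with both factors at the same site numbered 3295 with a -log10 q of at least 5, 1850 with a fold of at least 5, 3216 with a reciprocal overlap of 50% and 2362 within 5 kb of a gene end. Genes with both factors at different sites numbered 857 with a fold of at least 5, 3208 with a reciprocal overlap of 50% and 582 within 5 kb of a gene end. Fewer regions enter under the stricter thresholds and near gene ends, and a reciprocal overlap moves genes from one class to the other by its construction.

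The difference between a list's same-site share and that of all genes kept its direction in 461 of 470 list and setting combinations, of which 37 moved. Within 5 kb of a gene end it reversed for the ErbB, Met and Igf list (-7.08 percentage points), phosphodiesterases (-7.43), endothelium (-4.29), calcium channels (-3.43), tumour suppressors and DNA repair (-2.74), semaphorins (-1.43) and Sox genes (-0.321), and for the set sorted as histone genes (8.21, and 4.26 for gene bodies extended by 10 kb), and the cause was not tested. That last set was sorted by symbol and also holds histocompatibility genes such as H2-D1 and H2-Ab1. Of the 40 genes named by class, 22 stayed in their class within 5 kb of a gene end, 38 with gene bodies extended by 10 kb, 39 with a fold of at least 5, and all 40 under the other 7 settings.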

Other observations

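Gene families were sorted by symbol and described in the same way, beside 20.1% early Foxa1 only, 5.83% late Foxa2 only and 42.9% neither over all genes. Of 1104 olfactory receptor genes, 1016 held neither factor (92%). Their median length was 0.95 kb, and 73.5% of genes in the shortest of the 4 length groups held neither. Of 22 nuclear receptor genes with symbols in Nr, 9 held early Foxa1 only (40.9%) and none late Foxa2 only, and the 9 were 6 with lists of equal length. The mineralocorticoid receptor gene Nr3c2 held 35 early Foxa1 and 9 late Foxa2 regions with 6 shared, and the glucocorticoid receptor gene Nr3c1 held 16 and 8, also with 6 shared. Of 37 chemokine genes 14 held early Foxa1 only (37.8%), led by Cxcl1 with 7 regions and Cxcl15 with 6. Genes with calcium channel symbols leaned the other way: of 25, 5 held late Foxa2 only (20%), none early Foxa1 only, and 14 had more late Foxa2 than early Foxa1 regions, as 14.1% of all genes did. The 5 include Cacng3 and Cacng5, which are named as gamma subunits. Cacna2d3, an auxiliary calcium channel subunit, held 12 early Foxa1 and 62 late Foxa2 regions with 5 shared. Of 27 genes with glutamate receptor symbols 6 held late Foxa2 only (22.2%), among them Grik3 with 4 regions. Another of the 6, Grid2ip, is not itself a receptor gene. Grm8 held 1 early Foxa1 and 15 late Foxa2 regions. Hox cluster genes fell on both sides, with early Foxa1 only at Hoxa10, Hoxa13 and Hoxb13 (4 regions each) and late Foxa2 only at Hoxd3 and Hoxd8 (3 each).

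The shared portion varied widely among the 405 genes with 10 or more regions of each factor, around medians of 33.3% of early Foxa1 and 44.4% of late Foxa2 regions. The genes at the ends of the range were picked after their values were seen. In Appl2, an endosomal adaptor, 9 of 11 early Foxa1 regions (81.8%) and 83.3% of 12 late Foxa2 regions were shared. In Itga6 the shares were 70.6% of 17 and 87.5% of 16. In Cdk19, a Mediator kinase gene, 14.3% of 49 early Foxa1 regions but 90.9% of 11 late Foxa2 regions were shared, so the late regions lay almost wholly on early sites. In Cacna2d3 it was 41.7% of the early and 8.06% of the late regions. In Nrg1 both portions were low, 7.41% of 27 and 15.4% of 13.

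Assignment to genes can hide a shared promoter. The window before Aldh6a1, a mitochondrial dehydrogenase gene, was overlapped by an early Foxa1 region of -log10 q 40.8 and a late Foxa2 region of -log10 q 22.9. Their summits lay 288 and 311 bases before its start and were assigned to a neighbour, so Aldh6a1 itself was counted as early Foxa1 only, with 2 regions.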
